A study of Arabidopsis thaliana with 4 samples.

Results

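Al-treated plants of the AvSAMS1 TF line were compared here with Al-treated Col-0 plants, gene by gene, on the same kind of array. The comparison took the Cy5 channel alone from each of 4 Agilent 2-colour arrays, 2 per line, since Cy5 carried the Al-treated cRNA on every array. Of 43603 non-control probes, 31463 were well above background in Cy5 on both arrays of at least 1 line and entered the comparison. They covered 19707 Arabidopsis loci. Of these probes, 28927 were well above background on all 4 arrays, and 1966 on both arrays of 1 line and on 1 array of the other. A further 356 were so on both AvSAMS1 TF arrays and on no Col-0 array, and 214 on both Col-0 arrays and on no AvSAMS1 TF array.

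AvSAMS1 TF is Col-0 transformed with AvSAMS1, an S-adenosyl methionine (SAM) synthetase cDNA of the Al-tolerant grass Andropogon virginicus, which is driven by the CaMV 35S promoter. The arrays hold 1 transformant, TF6, described as a homozygous single insertion, so that the effect of the transgene cannot be told apart from other features of that line. The labels give Columbia-0 as the ecotype of both lines and wild type as the genotype of the Col-0 plants. Both lines were grown in soil to an age of about 3 weeks and given AlCl3 at pH 4.2 for 2 days, at 300 μM in the methods and 300 mM in the sample labels. Each RNA sample was a pool of plants, and the 2 pools of a line were independent. The labels give whole plants as the tissue and name shoots at the labelling step. Untreated plants of the same line were on the Cy3 channel of each array, sampled at day 0 for replicate 1 and at day 2 for replicate 2 according to the labels, and their values are given only beside those of the Al-treated plants. The annotation names no probe for the transgene, so its expression was not checked on the arrays.

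SAM is the methyl donor of most methylation reactions in the cell, and SAM synthetases make it from methionine and ATP. It is also a precursor of ethylene and polyamines, and its use in these routes feeds cycles that return methionine. Al in acid soil damages the root apex first, and Arabidopsis answers with the release of malate and citrate, with changes of phosphate and iron nutrition, and with stress and defence genes. Salicylic acid, in turn, drives a defence programme in leaves whose best known output is the group of pathogenesis-related (PR) proteins.

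Signals were put on a log2 scale and quantile-normalised between the 4 arrays. The difference AvSAMS1 TF minus Col-0 was taken within each replicate number, because the labels mark replicates 1 and 2 as separate experiments. The arrays of replicate 2 shared 1 slide, so that the replicate 2 difference is a within-slide value. Those of replicate 1 lay on a slide each, where slide and line cannot be told apart. In Cy5, 69.9% (replicate 1) and 78.4% (replicate 2) of the probes were well above background in AvSAMS1 TF, against 69.7% and 79.7% in Col-0. AvSAMS1 TF had a median Cy5 signal of 165 and 518, against 252 and 514 in Col-0, and replicate 1 was the dimmer array of each line. Leaf markers were bright on all 4 arrays, with each of the 7 defining genes (LHCB1.1, LHCB1.3, LHCB2.1, LHCA1, RBCS1A, RCA and PSBO1) measured. Of 39 root marker loci 23 passed the background filter, among them 7 of the 9 defining genes (not COBL9 and EXPA7). The organ from which this signal came was not tested. With RNA of whole organs, fewer cells of a type and less RNA per cell cannot be told apart.

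The 2 experiments agreed on the direction of the difference for 63.2% of the probes. Over all 31463 probes, Pearson's correlation of the replicate 1 and replicate 2 differences was 0.647 and Spearman's rho was 0.39. Over the 28927 probes well above background everywhere they were 0.428 and 0.343. Probes are not independent replicates, and these values are given as a description without a test. The SD of the difference over the same 28927 probes was 0.922 in replicate 1 and 0.726 in replicate 2. The large differences at the ends of the plot of within-replicate differences lay close to its diagonal, and most of them were of probes seen in 1 line only. Such probes were above background on both arrays of 1 line and on neither of the other, so their 2 differences tend to share a sign. Their place near the diagonal is therefore no measure of agreement.

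**Figure D1:**
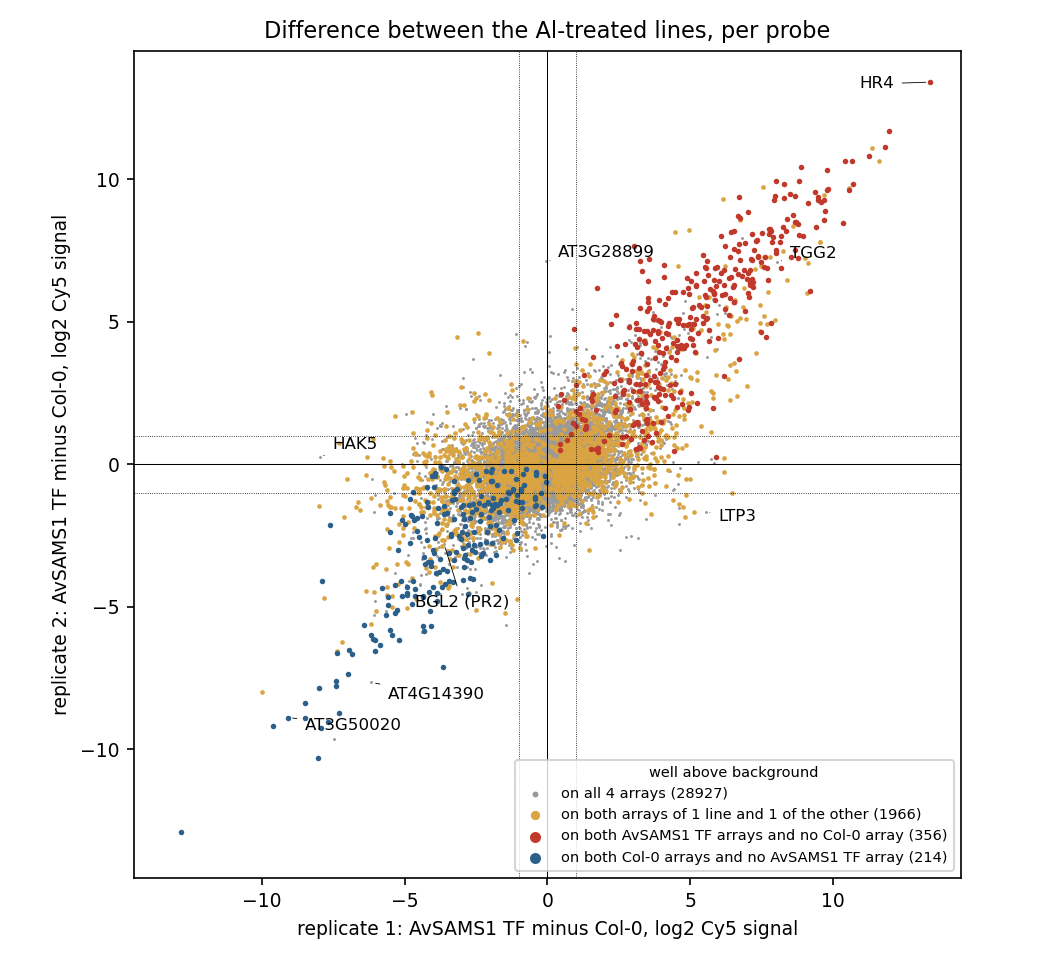
Log2 difference in Cy5 signal between Al-treated AvSAMS1 TF and Al-treated Col-0 within replicate 1 (x axis) and within replicate 2 (y axis), 1 point per probe, coloured by the arrays on which the probe was well above background. Dotted lines mark 2-fold. HR4 lies at 13.41 and 13.40, near the upper right end, while HAK5 lies at −7.98 in replicate 1 and 0.26 in replicate 2.

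Between the Al-treated lines, 445 probes differed with an adjusted p under 0.05 (limma with the replicate number as a block, Benjamini-Hochberg adjustment over all probes), which is 1.41% of the probes tested. A locus name was found for 296 of them, which belong to 258 loci, and none for the other 149. AvSAMS1 TF was higher for 317 (1.01%) and lower for 128 (0.407%). Without adjustment, 4663 probes (14.8%) had a p under 0.05. Of the probes higher in AvSAMS1 TF, 207 were seen on no Col-0 array, 56 on 1 Col-0 array and 54 on both. Of the lower ones, 69 were seen on no AvSAMS1 TF array, 28 on 1 and 31 on both. The fit had 1 residual degree of freedom and leaned on the spread pooled over probes. When it was made only on the 28927 probes seen on all 4 arrays, 0 passed by limma, with a smallest adjusted p of 0.0961, and 3955 had an unadjusted p under 0.05. Without a filter the smallest adjusted p was 0.0661 and 4976 had an unadjusted p under 0.05.

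By size alone, 1353 probes were at least 2-fold higher in AvSAMS1 TF within both replicates (4.3%) and 1178 at least 2-fold lower (3.74%). Those at least 2-fold apart in opposite directions in the 2 replicates numbered 342 (1.09%). Among the probes seen on all 4 arrays the counts were 755 higher (2.61%), 736 lower (2.54%) and 263 in opposite directions (0.909%). At a 16-fold difference, the same probes gave 25 higher and 11 lower.

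Most of the largest line differences under Al were also present in the untreated plants of the same arrays. Of the 317 probes called higher, 310 (97.8%) were also at least 2-fold higher in untreated AvSAMS1 TF within both replicates, and of the 128 called lower, 111 (86.7%) were also lower there. The median difference of the probes called higher was 5.81 under Al and 5.98 without Al, and that of the probes called lower was −4.5 under Al and −4.06 without. For the probes seen on all 4 arrays and at least 2-fold apart under Al, the share was smaller. Among the 755 higher probes, 486 (64.4%) were also 2-fold higher in untreated plants and 62 were within 2-fold there in both replicates. Among the 736 lower probes, 329 (44.7%) were also lower in untreated plants and 145 were within 2-fold there in both replicates. The Al-treated and untreated plants of a line share an array, and no difference between the 2 conditions was tested.

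TGG2, a myrosinase that cuts glucosinolates when tissue is wounded, had the largest difference of any locus measured on all 4 arrays. Its log2 Cy5 signal was 15.78 and 14.06 in AvSAMS1 TF and 7.73 and 6.96 in Col-0 (replicates 1 and 2), a mean difference of 7.58 with a standard error of 0.36 and an adjusted p of 0.0183 (limma). The lines did not overlap, and the untreated plants were apart in the same direction, with 12.88 and 15.11 in AvSAMS1 TF and 7.28 and 6.57 in Col-0. ESM1, a protein that steers glucosinolate breakdown towards isothiocyanates, had 15.19 and 16.62 in AvSAMS1 TF and 9.44 and 12.17 in Col-0. Its mean difference was 5.10 ± 0.43 (SE), with a limma adjusted p of 0.0431. Also of the glucosinolate route, IMS2 (known as MAM3), which lengthens the side chain of methionine in the synthesis of aliphatic glucosinolates, was lower in AvSAMS1 TF, at 8.15 and 8.94 against 11.90 and 13.07 in Col-0 (adjusted p of 0.03). Each of these 3 loci also differed the same way in untreated plants. No list of glucosinolate genes was examined. For loci seen on all 4 arrays, here and below, the adjusted p is that of the fit over all probes that entered. None passed when the fit was made only on probes seen on all 4 arrays.

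A pair of disease resistance genes of the nucleotide-binding, leucine-rich repeat kind followed among the loci higher in AvSAMS1 TF. AT1G59218 had 13.03 and 13.41 in AvSAMS1 TF and 6.21 and 5.46 in Col-0, a difference of 7.39 (limma adjusted p of 0.0202). For AT4G19500 the values were 11.42 and 11.89 in AvSAMS1 TF and 6.62 and 7.15 in Col-0, with the same adjusted p. Genes of this family have close copies, so that a probe may not separate them. AT1G23130 had 16.28 and 16.98 in AvSAMS1 TF and 10.25 and 11.39 in Col-0, and both of its probes agreed. CXIP4, a protein that interacts with calcium exchangers, had 15.90 and 15.97 in AvSAMS1 TF and 10.58 and 11.31 in Col-0 at its brightest probe. Its other 3 probes differed by 1.19, 0.80 and 0.41, so its difference of 4.99 was that of 1 probe of 4. AT2G42980, AT2G04850, AT2G40920 and AT5G44520 completed the 10 loci highest in AvSAMS1 TF by the smaller of the 2 replicate differences among those well above background on all 4 arrays, with mean differences of 5.04, 4.40, 4.56 and 4.42.

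Among loci well above background on all 4 arrays, the largest deficit in AvSAMS1 TF was that of AT4G14390, an ankyrin repeat gene next to ACD6 on chromosome 4. Its signal was 5.86 and 7.14 in AvSAMS1 TF and 12.04 and 14.80 in Col-0, a difference of −6.91 ± 0.47 (SE) with a limma adjusted p of 0.0294. AT5G35375 followed at −5.43, with 5.74 and 6.59 in AvSAMS1 TF and 11.80 and 11.38 in Col-0. TIF3C2, a gene for a subunit of translation initiation factor 3, had 5.29 and 5.69 in AvSAMS1 TF and 9.73 and 9.58 in Col-0. The transcription factor gene MYB47 had 7.25 and 6.6 in AvSAMS1 TF and 11.21 and 10.19 in Col-0. The others were AT1G62690, AT5G44570, AT5G57567, AT4G12100 and AT1G67150, with mean differences of −5.14, −4.53, −3.88, −4.05 and −4.15. The lines did not overlap under Al for any of the 20 loci, which were chosen for the size of this difference. In untreated plants 19 of the 20 were at least 2-fold apart the same way within both replicates. AT1G67150 was the exception, with 8.15 and 6.47 in untreated AvSAMS1 TF and 6.77 and 8.53 in untreated Col-0, where the lines overlapped, against 5.47 and 5.34 in Al-treated AvSAMS1 TF and 9.21 and 9.89 in Al-treated Col-0 (limma adjusted p of 0.0392). A single probe stood for 16 of the 20 loci. All 20 were past the threshold in the paired fit over all probes. None was when that fit was made only on probes seen on all 4 arrays (smallest limma adjusted p of 0.0961). When 1 array was left out, and with it the pairing, most were no longer past it, with no change of direction.

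For probes not well above background in 1 line the array gives only a lower bound of the fold, set here from the lowest signal among probes well above background on each of the dim arrays on the quantile-normalised scale. HR4, a homolog of the powdery mildew resistance gene RPW8, had log2 signals of 15.53 and 15.82 in AvSAMS1 TF and 2.12 and 2.41, not well above background, in Col-0. It was at least 2870-fold higher in AvSAMS1 TF, and its second probe (12.86 and 12.68 in AvSAMS1 TF, 2.19 and 2.05 in Col-0) behaved alike. AT4G34881 was at least 1110-fold higher and AT1G69890 at least 756-fold higher. In the other direction, AT5G17090 was at least 268-fold lower in AvSAMS1 TF, AT3G50020 at least 182-fold lower and AT4G32230 at least 173-fold lower. The 3 loci not seen in AvSAMS1 TF had between 11.19 and 12.68 in Col-0. HR4 and the other loci named here entered the comparison through the line where they are bright. At the probes seen in 1 line, the limma p rests on values not above background in the other line, so only bounds are given for them.

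Only a minority of the probes seen in 1 line were bright in that line. A mean log2 signal of 10 or more was reached by 62 of the 356 probes seen in AvSAMS1 TF alone and by 12 of the 214 seen in Col-0 alone. In untreated plants, 213 of the 356 and 87 of the 214 had the same pattern of detection. Probe names were paired with genes of the Columbia reference genome. A transcript that is scarce and a transcript that the probe does not match cannot be told apart on an array. HR4 was not well above background, and TGG2 was dim, on the arrays labelled Col-0, although both are genes of the Columbia reference. Whether the 2 lines share the ecotype that the labels give was not tested, and this bears on the largest differences. Of 258 loci with a probe past the threshold, 100 had more than 1 probe in the comparison. For 53 of them every probe was at least 2-fold apart in the same direction in both replicates, and for 31 at least 1 probe was within 2-fold in both. No locus had probes called in both directions. By chromosome, between 0.763% (chromosome 2) and 1.54% (chromosome 4) of the probes were called.

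The gene lists were read with 1 probe per locus. On that base 201 of the 19707 loci passed the limma test (1.02%), 136 of them higher in AvSAMS1 TF (0.69%) and 65 lower (0.33%), and 13.3% had an unadjusted p under 0.05. At least 2-fold higher within both replicates were 698 loci (3.54%), and 719 were at least 2-fold lower (3.65%). The median difference of all loci was −0.06. No list was tested as a set.

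The endogenous SAM synthetase genes did not differ past the threshold between the Al-treated lines. SAM1 had 14.24 and 15.11 in AvSAMS1 TF and 14.70 and 15.04 in Col-0, a difference of −0.20 ± 0.29 (SE). SAM-2 (AT4G01850) had 13.90 and 13.59 in AvSAMS1 TF and 14.24 and 13.84 in Col-0. For MTO3 (MAT4) the values were 16.46 and 15.38 in AvSAMS1 TF and 16.68 and 15.87 in Col-0. MAT3 had the lowest ratio, with 13.74 and 13.97 in AvSAMS1 TF and 15.32 and 14.48 in Col-0, a difference of −1.05 ± 0.38 (SE) and an adjusted p of 0.356 by limma. At the brightest probe all 4 were lower in AvSAMS1 TF on average, but 2 of the other probes of MTO3 gave 0.37 and 0.13 and 1 of SAM1 gave 0.00. At the brightest probe the adjusted p lay between 0.356 and 0.791. The sign of SAM1 turned without AvSAMS1 TF replicate 1 (0.24), and that of MTO3 without AvSAMS1 TF replicate 2 (0.19) and without Col-0 replicate 1 (0.05).

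In the wider list of SAM synthesis and use, 47 of 51 loci were measured, with a median difference of −0.04, against −0.06 over all 19707 loci. Only 1 passed the test. MTI1 (AT2G05830), the methylthioribose 1-phosphate isomerase of the cycle that returns the methylthio group to methionine, had 12.71 and 12.59 in AvSAMS1 TF and 3.25 and 3.32, not well above background, in Col-0. It was at least 348-fold higher in AvSAMS1 TF, from the 1 probe it has, and the untreated lines were 9.50 and 9.30 apart on the log2 scale. Its limma adjusted p of 0.0158 rests on Col-0 values not above background. HMT3, a homocysteine methyltransferase, had 10.23 and 10.65 in AvSAMS1 TF and 12.59 and 12.09 in Col-0, which was 3.74-fold lower with a limma adjusted p of 0.167. In untreated plants its difference was 2.74 in replicate 1 and −1.67 in replicate 2. Of 35 measured loci of DNA and histone methylation 0 passed the limma test and 4 had an unadjusted p under 0.05, 2 of them in each direction, with a median of −0.15. DML3, a DNA demethylase, was the one locus at least 2-fold apart, with 5.66 and 6.0 in AvSAMS1 TF and 2.34 and 3.87 in Col-0, of which 1 Col-0 array was not well above background.

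Genes of salicylic acid immunity were lower in Al-treated AvSAMS1 TF than in Al-treated Col-0. All 24 loci of the list were measured, 20 of them were lower in both replicates (83.3%, against 35.4% of all loci), and the median difference was −1.18, with −1.41 in replicate 1 and −0.91 in replicate 2. None passed the limma threshold, which 0.33% of all loci passed as lower. At an unadjusted p under 0.05, 11 were lower (45.8%, against 6.94% of all loci) and 1 was higher. By size, 6 were at least 2-fold lower in both replicates (25%, against 3.65% of all loci) and 1 was higher. In untreated plants the median of the list was 0.17 in replicate 1 and 0.14 in replicate 2, and 5 of the 24 were lower in both.

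PR2 (BGL2), a glucanase and a standard readout of salicylic acid signalling, had 7.13 and 12.08 in AvSAMS1 TF and 10.75 and 14.86 in Col-0. The signals of the 2 experiments were far apart and the lines overlapped, but within each replicate AvSAMS1 TF was lower, with a difference of −3.63 in replicate 1 and −2.78 in replicate 2 on the log2 scale. The mean is a 9.23-fold lower signal, with an adjusted p of 0.0657 by limma, just above the threshold. With 1 array left out, and so without the pairing, its difference lay between −5.68 (without AvSAMS1 TF replicate 2) and −0.73 (without AvSAMS1 TF replicate 1), and over all alternatives its adjusted p lay between 0.0212 and 0.99. Untreated plants gave −0.67 and 0.97. PR5, a thaumatin-like protein of the same programme, was 5.36-fold lower, with 9.67 and 11.54 in AvSAMS1 TF and 12.13 and 13.92 in Col-0 (limma adjusted p of 0.0652, and between 0.0338 and 0.913 over the alternatives). PR1 had a difference of −4.22 in replicate 1 and 0.30 in replicate 2, opposite in sign.

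Of 3 genes that make the immune signal N-hydroxypipecolic acid, none passed the limma test. FMO1, the last enzyme of the route, had 7.11 and 10.95 in AvSAMS1 TF and 11.36 and 12.38 in Col-0 (adjusted p of 0.27). ALD1, the first, had 4.05 and 8.34 in AvSAMS1 TF and 7.58 and 9.95 in Col-0, and was not well above background on 1 AvSAMS1 TF array (limma adjusted p of 0.211). SARD4, which acts between them, had differences of −0.27 and 0.78. UGT76B1, a glycosyltransferase of salicylic acid, had 10.31 and 9.69 in AvSAMS1 TF and 12.90 and 11.19 in Col-0. ACD6, a membrane protein that sets the strength of salicylic acid defence, was 2.08-fold lower at its brighter probe and had a difference of −2.20 at its other probe, with limma adjusted p of 0.231 and 0.079. The brighter probe was lower in untreated plants as well (−2.53 and −1.10). With 1 array left out and no pairing, its difference under Al was 0.19 without AvSAMS1 TF replicate 1 and 0.22 without Col-0 replicate 2.

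The list also holds genes of the synthesis and perception of salicylic acid, none past the threshold. ICS1, which makes most of the hormone, had differences of −0.24 and −1.04. EDS1, PAD4 and SAG101, a group of immune regulators that act together, had mean differences of −0.86, −0.71 and −0.45. NPR1, a receptor of the hormone, had 11.68 and 11.87 in AvSAMS1 TF and 11.78 and 11.96 in Col-0. The exception in direction was AIG1, a gene induced by bacterial effectors, with 6.90 and 10.20 in AvSAMS1 TF and 5.85 and 6.81 in Col-0, and it was higher in untreated AvSAMS1 TF too (5.07 and 3.98).

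Lists other than salicylic acid immunity also had negative medians in both replicates. Those of root genes were −1.67 and −0.70, of iron deficiency −0.64 and −0.86, and of abscisic acid −0.99 and −0.49. The phosphate starvation list was lower in both experiments too. Of its 27 loci 25 were measured, 20 of them were lower in both replicates (80%, against 35.4% of all loci) and 0 higher in both (26.5% of all loci), and the median was −0.73. Within the replicates the medians were −1.30 and −1.02, both larger in size, since the loci that were low differed between them: PHT1;1 had −0.18 and −1.28, and PECP1 −1.30 and −0.05. At least 2-fold lower in both replicates were 8 loci (32%, against 3.65% of all loci). RNS1, a ribonuclease that frees phosphate from RNA, passed the test. Its signal was 10.78 and 9.52 in AvSAMS1 TF and 14.08 and 12.92 in Col-0, which is 10.2-fold lower with an adjusted p of 0.0357 (limma), and the lines did not overlap. It was also lower in untreated AvSAMS1 TF, with differences of −3.67 and −1.01. With any 1 of the 4 arrays left out, and so without the pairing, it did not pass (limma adjusted p between 0.204 and 0.471).

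AT4, a non-coding RNA that accumulates when phosphate is short, had 11.90 and 13.92 in AvSAMS1 TF and 15.84 and 16.91 in Col-0, 11-fold lower with a limma adjusted p of 0.0637. Its other probe was 4.97-fold lower (limma adjusted p of 0.0901). At the brighter probe AT4 (AT5G03545) had nearly the same difference in untreated plants (−3.88 and −3.07). The high-affinity phosphate transporter PHT1;4 had 8.37 and 10.65 in AvSAMS1 TF and 10.06 and 12.21 in Col-0, and its untreated lines were close (−0.03 and 0.19). SPX1, a phosphate sensor, had 11.58 and 14.20 in AvSAMS1 TF and 13.26 and 15.32 in Col-0. MGD2 and MGD3 (MGDC), synthases of galactolipids that replace phospholipids, had mean differences of −1.71 and −1.18, with limma adjusted p of 0.153 and 0.208. For MGD3 the difference was 0.84 without AvSAMS1 TF replicate 1 and 0.73 without Col-0 replicate 2, where the pairing is lost. PHR1, the regulator of the response, differed by −0.09 in each replicate. Without Al the list had a median of −0.02 in replicate 1 and −0.55 in replicate 2.

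**Figure D2:**
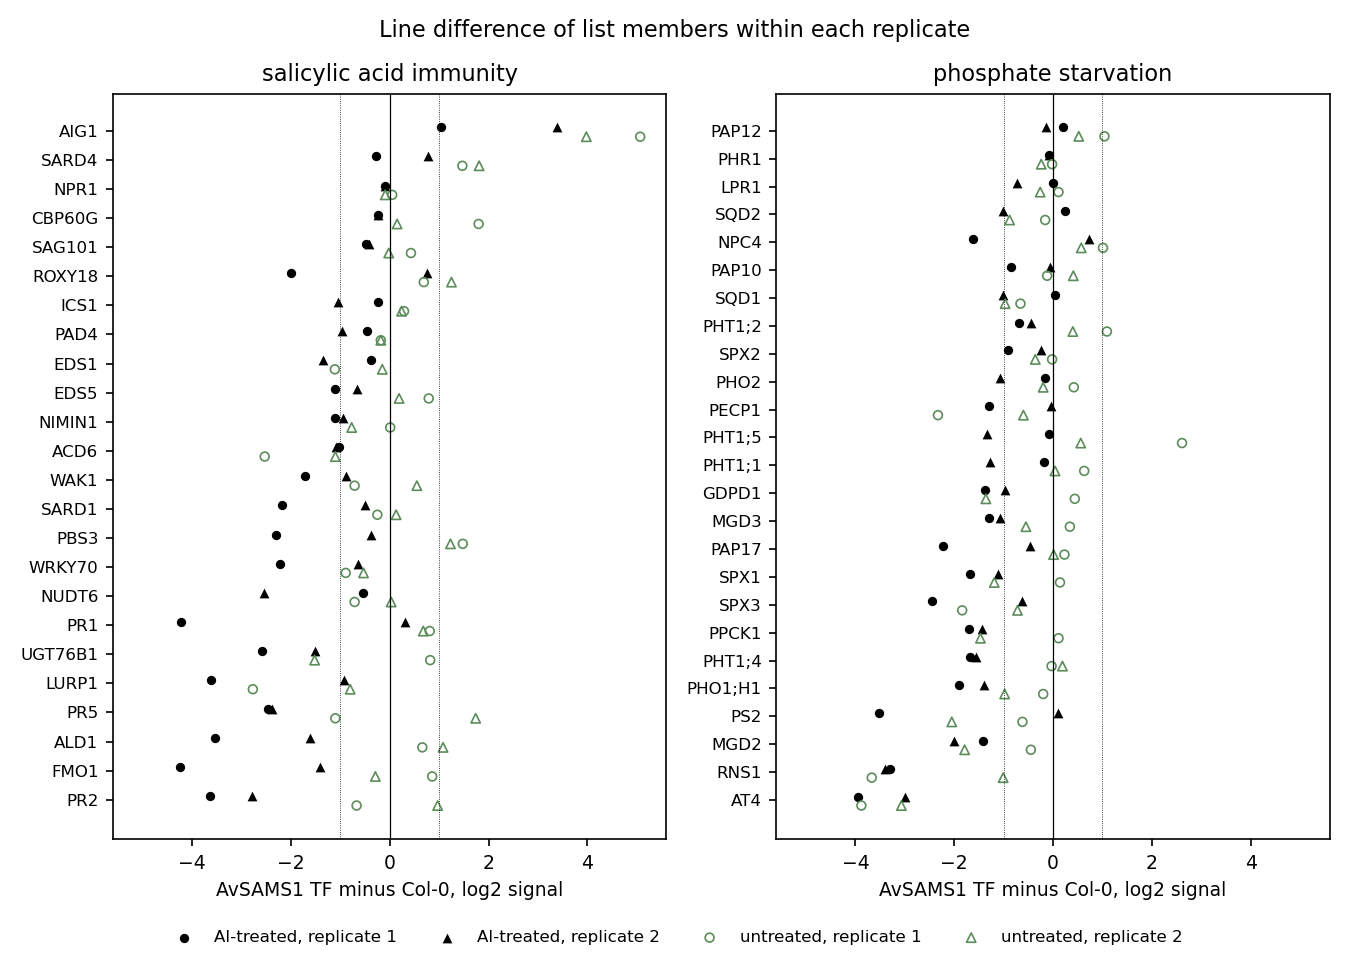
Log2 difference AvSAMS1 TF minus Col-0 (x axis) of each measured locus of the salicylic acid immunity list (left, 24 loci) and the phosphate starvation list (right, 25 loci), in Al-treated plants (filled) and in the untreated plants of the same arrays (open). Circles are replicate 1, triangles replicate 2, and dotted lines mark 2-fold. PR2 lies at −3.63 and −2.78 under Al and at −0.67 and 0.97 without, while AT4 lies near −3 to −4 in both conditions.

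Of 23 iron deficiency loci 17 were measured, and 11 were lower in both replicates (64.7%, against 35.4% of all loci), with a median of −0.86. In untreated plants the median was −0.03 in replicate 1 and −1.23 in replicate 2. The 1 locus past the threshold was IMA1 (AT1G47400), for a small peptide that promotes iron uptake. It had 2.35 and 6.42 in AvSAMS1 TF and 6.96 and 11.15 in Col-0, a difference of −4.67 ± 0.25 (SE) with a limma adjusted p of 0.0208. IMA1 was not well above background on AvSAMS1 TF replicate 1, where the lowest signal well above background was 4.65. Its replicate 1 difference, and the SE and p, therefore depend on a value below that level. With any 1 array left out IMA1 did not pass. Its difference was −2.64 without AvSAMS1 TF replicate 1 and −2.57 without Col-0 replicate 2. IMA2 (AT1G47395), a peptide gene of the same kind, had 4.68 and 7.60 in AvSAMS1 TF and 7.43 and 12.11 in Col-0. FIT (FRU), the transcription factor of iron uptake in the root, and FRO2, the ferric reductase it drives, were dim and both about 2-fold lower, at differences of −1.02 and −1.01. IRT1, the iron transporter, had 5.50 and 5.18 in AvSAMS1 TF and 5.97 and 5.87 in Col-0.

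Of the 23 root marker loci measured, 0 passed the limma test, and 8 lower and 1 higher had an unadjusted p under 0.05. In both replicates 14 were lower (60.9%, against 35.4% of all loci) and 2 higher, with a median of −0.97, and 5 were at least 2-fold lower (21.7%, against 3.65% of all loci). In untreated plants the median was 0.33 in replicate 1 and −1.01 in replicate 2. The summed normalised signal of the root list was 47900 and 75700 in AvSAMS1 TF and 135000 and 70300 in Col-0. In this sum the deficit lay in replicate 1, but the median difference was −1.67 in replicate 1 and −0.70 in replicate 2. RCI3, a root peroxidase, had 7.10 and 6.97 in AvSAMS1 TF and 9.97 and 9.54 in Col-0 (limma adjusted p of 0.0565), and the aquaporin gene TIP2;3 had 6.69 and 6.30 in AvSAMS1 TF and 10.56 and 8.18 in Col-0. Its relative TIP2;2 went the other way, with 13.02 and 12.53 in AvSAMS1 TF and 10.43 and 11.05 in Col-0. Several genes of phosphate and iron uptake are expressed mainly in roots, and the part of root RNA in their differences was not tested.

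Of the 45 leaf photosynthesis loci 38 were higher in both replicates (84.4%, against 26.5% of all loci) and 0 lower in both, but none reached 2-fold in both and 0 had an unadjusted or adjusted p under 0.05 by limma. The median was 0.41, with 0.71 in replicate 1 and 0.21 in replicate 2. LHCB1.3, a light-harvesting protein gene, had 18.84 and 18.84 in AvSAMS1 TF and 17.93 and 18.39 in Col-0. RBCS1A, for the small subunit of Rubisco, had 18.31 and 18.12 in AvSAMS1 TF and 17.53 and 18.29 in Col-0, where the lines overlapped. In the untreated plants the median of the list was −1.41 in replicate 1 and −0.07 in replicate 2.

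Jasmonate and defensin genes gave a mixed picture. The list of 35 measured loci had a median of −0.17, with −0.65 in replicate 1 and 0.51 in replicate 2, and 0 passed the limma test, while 5 higher and 1 lower had an unadjusted p under 0.05. Its 3 loci at least 2-fold higher were the defensin genes PDF1.2, PDF1.2b and PDF1.2c. PDF1.2 (AT5G44420) had 13.52 and 16.53 in AvSAMS1 TF and 11.29 and 15.50 in Col-0. PDF1.2b had 11.90 and 14.14 in AvSAMS1 TF and 8.31 and 12.48 in Col-0. PDF1.2c had 11.85 and 14.52 in AvSAMS1 TF and 8.91 and 12.65 in Col-0. These genes are close copies, which the probes may not separate, and their limma adjusted p lay between 0.13 and 0.239. For PDF1.2 the difference was −0.48 without Col-0 replicate 1, where the pairing is lost.

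Loci of the Al tolerance list did not differ past the threshold. All 17 were measured, 0 passed the limma test, 1 higher and 2 lower had an unadjusted p under 0.05, and none was 2-fold apart the same way in both replicates. Their median was −0.96 in replicate 1 and 0.15 in replicate 2. ALMT1, the malate channel of the root, had 8.34 and 11.79 in AvSAMS1 TF and 11.25 and 12.71 in Col-0. MATE, a citrate transporter, had 9.41 and 13.12 in AvSAMS1 TF and 13.62 and 13.97 in Col-0. For both the deficit was much larger in replicate 1 (−2.91 and −4.21) than in replicate 2 (−0.92 and −0.85). STOP1, the transcription factor that controls them, had 13.95 and 13.99 in AvSAMS1 TF and 13.98 and 13.77 in Col-0. NIP1;2, which takes up Al-malate, was higher, with 10.19 and 11.26 in AvSAMS1 TF and 9.20 and 9.12 in Col-0 (limma adjusted p of 0.241), and was higher in untreated AvSAMS1 TF too (2.14 and 1.77).

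Large differences that belonged to 1 experiment were also present. HAK5, a high-affinity potassium transporter, had 8.24 and 15.23 in AvSAMS1 TF and 16.22 and 14.97 in Col-0, and only AvSAMS1 TF replicate 1 was low. LTP3, a lipid transfer protein gene, had 14.09 and 9.22 in AvSAMS1 TF and 8.54 and 10.89 in Col-0. PGAZAT, a polygalacturonase gene of abscission and dehiscence zones, had 5.43 and 13.03 in AvSAMS1 TF and 10.38 and 11.25 in Col-0. AT3G28899 and AT5G59490 had differences of −0.06 and −2.61 in replicate 1 and 7.12 and 3.70 in replicate 2. The limma adjusted p of these 5 loci lay between 0.489 and 0.906.

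Some lists also differed between the experiments, by their medians or by single loci. Heat shock genes had a median of −0.95 in replicate 1 and 0.67 in replicate 2, with 6 of 27 loci at least 2-fold apart in opposite directions (1.25% of all loci). Flavonoid and anthocyanin genes had −1.82 and 0.21, and glutathione S-transferase genes −1.08 and −0.01. Within the last list 5 loci were at least 2-fold lower in both replicates, GSTU9, GSTU20, GSTU24, GSTU26 and GSTU27, with mean differences between −2.48 and −1.49 and 0 past the adjusted threshold of limma (5 at an unadjusted p under 0.05). Clock genes had 0.35 and 0.31, against a median of 0.08 for the mean of both replicates, with 5 of 21 in opposite directions.

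**Figure D3:**
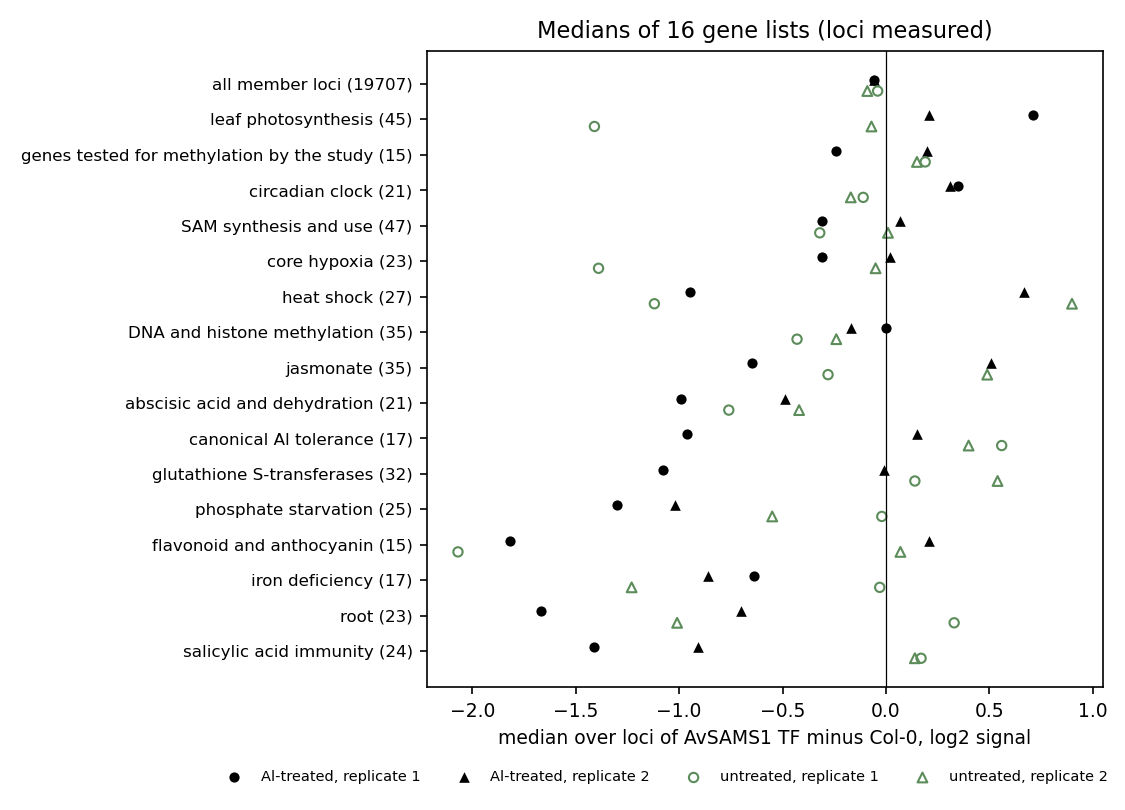
Median log2 difference AvSAMS1 TF minus Col-0 (x axis) of 16 gene lists and of all loci, with the number of loci measured, in Al-treated plants (filled) and in untreated plants of the same arrays (open). Circles are replicate 1 and triangles replicate 2. The salicylic acid immunity list stands at −1.41 and −0.91 under Al and at 0.17 and 0.14 without, and all loci lie at −0.06 in both replicates under Al.

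The list of 20 genes whose methylation the study tested, which it chose from these arrays, is not complete. It holds the genes tested for DNA methylation and those shown as examples of the histone test, but not the other genes of that test. Of the 20, 15 were measured here. Their median difference was 0.11. In both replicates 5 loci were higher (33.3%, against 26.5% of all loci) and 5 lower (33.3%, against 35.4% of all loci). AT4G18940 passed the test, with 6.95 and 6.6 in AvSAMS1 TF and 2.40 and 2.25, not well above background, in Col-0 (at least 6.02-fold higher). Its limma adjusted p of 0.0231 rests on these Col-0 values, and with any 1 array left out it was no longer past the threshold. It was brighter in untreated AvSAMS1 TF (11.31 and 9.79) and dim in untreated Col-0 (2.15 and 2.19). AT3G56060 was 2.93-fold lower in AvSAMS1 TF, with 6.79 and 8.11 against 8.62 and 9.39 in Col-0, and an adjusted p of 0.172 (limma). AT2G34430 (LHCB1.4), a light-harvesting protein gene, had 16.37 and 16.98 in AvSAMS1 TF and 15.63 and 16.80 in Col-0.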

How the data were processed

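The authors extracted the spot values with Agilent Feature Extraction, which subtracts the background and corrects the dyes within each array. The file headers give version 11.0.1.1 for replicate 1 and 10.7.1.1 for replicate 2, and the labels give 10.7.3.1. The deposited intensity values used here are the processed and the median Cy5 and Cy3 signals, with the marks of other kinds (well above background, saturation, outlier) that the authors deposited beside them. The deposited log ratios and the series table, which hold Al over untreated ratios, were not used.

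Control spots and 23 probes with outlier spots were left out, spots of a probe were averaged, and log2 Cy5 signals were quantile-normalised over 4 arrays with limma 3.58.1 in R 4.3.3. Of all probes, 34485 were paired to 25482 loci by RefSeq accession and locus name (TAIR10.1 gene table), and 38 had annotations that disagreed. No probe was saturated in Cy5 (0). Of several probes of a locus, the one brightest on average over the 4 arrays stood for it. The Cy3 channel was treated alike and apart.

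The lines were compared with lmFit and eBayes with the replicate number as a block (residual degrees of freedom 1, prior degrees of freedom 2.57), and p was adjusted by Benjamini-Hochberg with a threshold of 0.05. The labels mark replicates 1 and 2 as 2 experiments, and deviations of same-numbered arrays from the line means correlated at 0.467 over the 28927 probes seen on all arrays. An exact permutation of 2 against 2 arrays cannot give a two-sided p under 0.333. The number of arrays limits the precision. The steps were tested on simulated data. Alternatives were other background corrections, normalizations, filters and thresholds, no block, and leaving out each array. The files used here hold no mean spot signal, so normexp (offset of 50) was run on the median. No sequence of probes, promoters or proteins was used here, and the planned motif search was not run.

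Genes were named by rule. Of loci well above background on all 4 arrays, the 10 higher and the 10 lower were taken by the smaller replicate difference. The rules also took 3 loci each way by a probe seen in 1 line, and list members 2-fold apart in both replicates. The 4 SAM synthetase genes, the 5 loci with the largest disagreement and the study's methylation genes were named too. Further list members in the text were picked once their values had been seen. The comparison, the lists and the rules were chosen with earlier results of these data known.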

Additional observations from a re-analysis of the deposited data

Results flagged for a closer look

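AT3G56060, a glucose-methanol-choline oxidoreductase gene, was flagged because its line difference had opposite signs in the 2 conditions, in both replicates. Under Al the mean difference was −1.55, with AvSAMS1 TF lower in both replicates (−1.82 and −1.27). In untreated plants AvSAMS1 TF was slightly higher in both, by 0.16 in each. The values were 9.54 and 9.72 in AvSAMS1 TF and 9.38 and 9.56 in Col-0. That difference is smaller than the standard error under Al (0.29), so the untreated lines were close. ALD1 also changed sign, with −3.53 and −1.61 under Al and 0.66 and 1.08 without. The difference between the 2 conditions was not tested, and AT3G56060 is a gene the study chose from these arrays. With 2 samples per group, no array was tested as an outlier within its group.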

How the results depend on the processing

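The count of 445 probes past an adjusted p of 0.05 became 413 with no replicate block (367 of them shared) and between 318 and 429 with other background and dye corrections or an intensity trend, but 175 after 75th percentile scaling, 0 on probes well above background on all 4 arrays and 0 with no filter. Leaving out 1 array, without the block, gave between 114 and 198 (114 without AvSAMS1 TF replicate 1), and between 2230 and 3953 at an unadjusted p under 0.05, against 4663. No shared call changed direction, and the 20 loci named for their size were called in 3 to 9 of 12 alternatives. The counts at least 2-fold apart in both replicates, 1353 higher and 1178 lower in AvSAMS1 TF, became 755 and 736 on probes seen on all 4 arrays, 866 and 567 after normexp, loess and Aquantile, and 665 lower after normexp and quantile normalization. They became 2556 and 2565 at 1.5-fold and 605 and 313 at 4-fold. Within 1 replicate alone they were between 2374 and 3749 higher and between 2354 and 3772 lower. Pearson's correlation of the 2 replicate differences, 0.65, became 0.43 on probes seen on all 4 arrays and 0.54 with no filter and with normexp, loess and Aquantile. Over single replicates, list medians ran between −0.17 and 0 for DNA and histone methylation, 0.31 and 0.35 for the clock, −1.67 and −0.70 for root, −1.30 and −1.02 for phosphate starvation, −0.99 and −0.49 for abscisic acid, −0.86 and −0.64 for iron and −0.24 and 0.20 for the study's methylation genes, and the median of all loci was −0.04 with the median over the probes of a locus. With 1 array or 1 replicate left out, the mean difference changed sign for 12 named loci, none of them called, and ran between −3.20 and 0.84 for MGDC, −2.33 and 0.22 for ACD6, −4.72 and 1.47 for DREB1A, −0.64 and 0.24 for SAM1, −1.68 and 5.55 for LTP3, −5.39 and 2.21 for PGAZAT, −4.10 and 0.07 for AT5G66985, −0.90 and 0.19 for MTO3, −2.67 and 3.75 for AT5G59490, −0.48 and 3.73 for PDF1.2, −7.98 and 0.26 for HAK5 and −0.06 and 7.12 for AT3G28899. In fits without 1 array the lone array of a line was assumed to vary like the other line. Dim arrays limit what was seen: replicate 1 had fewer probes above background in both lines.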
